A study of Mus musculus with 12 samples.

Results

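The 43 genes described here encode the machinery that copies DNA in S phase, with the enzymes that make its building blocks and the regulators that switch these genes on. They were chosen by name as genes of origin licensing, S phase and nucleotide synthesis. The choice was made with earlier results of these data known. All 43 are among the 25899 gene symbols of the deposited count table, and all 43 passed the filter on low counts that left 12622 genes for testing. RNA was sequenced in bulk from cells sorted as intraepithelial lymphocytes (IEL), the T cells that sit among the epithelial cells of the small intestine. The hosts were Rag2-/- mice, which cannot rearrange antigen receptor genes but still hold natural killer cells, innate lymphoid cells and myeloid cells. A host received conventional CD4+ or CD8αβ+ T cells from lymph nodes of Themis WT donors in 1 intravenous injection, and tissue was taken 1 week later. The labels give the genotype WT for every library, and no age. Each of the 4 sorted groups had 3 libraries. CD4 IEL and CD8αα from CD4 are, by their labels, TCRβ cells that carry CD4 or a CD8αα homodimer in hosts given CD4+ T cells. CD8αβ IEL and CD8αα from CD8αβ are the corresponding TCRβ cells in hosts given CD8αβ+ T cells. The series title concerns the CD8αα cells of the 2 origins. Nothing in the labels ties replicates to separate animals. The p-values below therefore refer to the spread between these samples. This spread may be technical in the companion groups, although the lowest correlations between replicates (r of log2 levels, 0.926 to 0.946) were those of CD8αβ IEL. Replicates within each CD8αα group differ in sex-linked transcripts, as given below.

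Replication is prepared in G1, when the origin recognition complex, Cdc6 and Cdt1 load the ring-shaped MCM2-7 helicase onto DNA. Kinases, Mcm10, Cdc45 and the GINS complex then turn the loaded rings into active forks, where polymerase α-primase starts each strand and polymerases δ and ε extend it behind the sliding clamp PCNA. Many of these genes are targets of E2F transcription factors, which the retinoblastoma family holds in check until G1 cyclin kinases release them, so their transcripts rise in cycling cells and are low in resting ones. T cells transferred into lymphopenic hosts are known to divide, whereas resident IEL are mostly thought to cycle slowly.

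Totals ran from 5618917 to 11068713 counts per library, and 12838 to 14085 genes had at least 1 count. The coreceptor genes matched the sort, with Cd8a at 2433 to 3251 CPM (counts scaled to 1e6 per library) and Cd8b1 at 2.53 to 20.6 CPM in the 6 libraries labelled CD8αα, but other genes went against a T cell label there. The T cell receptor complex genes Cd3e, Cd3d and Cd247 were low in all 6 (at most 22.1, 28.2 and 41.1 CPM), against at least 403, 217 and 341 CPM in the other 6. Of 8 T cell markers 6 fell in the CD4 progeny, 5 fell in the CD8αβ progeny and 1 (Cd3g) rose in each, and their sum was 5893 to 7430 CPM in the CD8αα libraries and 6377 to 7916 in the others. The summed level of 8 markers of natural killer and innate lymphoid cells was 2879 to 5652 CPM in the CD8αα libraries and 324 to 504 in the others. Of these 8, 3 rose and 4 fell in the CD4 progeny, and 4 rose and 2 fell in the CD8αβ progeny. Fcer1g, Tyrobp and Klrb1c were high, whereas Ncr1, Eomes and Il1rl1 were at most at 4.27 CPM in the CD8αα libraries. Of 4 myeloid markers Itgam rose in both progenies (152 to 256 CPM against at most 16.6), whereas Lyz2, Csf1r and Cd68 fell in the CD8αβ progeny (−3.34, −0.99 and −2.18 on the log2 scale) and were not called in the CD4 progeny (−1.02, −0.85 and −0.82). Pecam1, 1 of 2 tested markers of stroma and endothelium, rose in both (499 to 749 CPM against at most 113). The 10 epithelial markers summed to 106 to 496 CPM in the companion libraries and 459 to 782 in the CD8αα libraries. Of these 10, 2 rose in the CD4 progeny, 4 rose in the CD8αβ progeny and 0 fell in either. Epcam and Cdh1 rose in both, with Cdh1 at 232 to 296 CPM against 50.9 to 110. Krt8, Krt20, Vil1, Fabp1 and Fabp2 were called in neither and had negative log2 fold changes in the CD8αβ progeny. The 5 markers of crypt epithelium summed to at most 7.04 CPM, with Ascl2 at 0 in all 12. The fibroblast gene Col3a1 was at 0 throughout. Sex-linked transcripts split the CD8αα libraries. Xist stood at 373 to 645 CPM, and the sum of 4 Y-linked genes at 0.342 to 1.03 CPM, in 4 libraries: CD8αα from CD4 replicates 1 and 2, CD8αα from CD8αβ replicates 1 and 3. In the 8 other libraries Xist ran from 0 to 36.4 CPM and the Y-linked sum from 234 to 449 CPM. The 4 are named below as the libraries with Xist, a split by level (Xist above 100 CPM, Y-linked sum below 10 CPM). The names CD4 progeny and CD8αβ progeny follow the labels, and whether the cells of the CD8αα libraries descend from the transferred T cells was not tested. What part these marker and sex-linked differences have in the results was not tested either, so each difference below is one between libraries as labelled. Each main count is given with and without those 4 libraries.

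Most replication genes were lower in the CD8αα libraries than in the companion cells of the same progeny. In the CD4 progeny 23 of the 43 fell and 4 rose, and in the CD8αβ progeny 37 fell and 2 rose (edgeR quasi-likelihood test, Benjamini-Hochberg adjustment over 12622 genes, called at adjusted p under 0.05). Among all genes tested, 28.5% were called in the CD4 progeny (13.5% lower, 15.0% higher) and 31.2% in the CD8αβ progeny (15.1% lower, 16.1% higher). The median log2 fold change of the 43 was −0.67 and −1.35, while that of all genes tested was 0.02 and −0.00. All 3 CD8αα libraries lay below all 3 companion libraries for 27 of the 43 in the CD4 progeny against 38 in the CD8αβ progeny, where 21.4% and 20.5% of all genes did so. They lay above for 5 and 2 of the 43, and for 24.3% and 23.3% of all genes. In bulk RNA a smaller share of replicating cells and less RNA of these genes per cell cannot be told apart.

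The 2 comparisons share no library. Both come from 1 fit to all 12 libraries, with 1 estimate of spread per gene, so they are not independent. The 23 genes that fell in the CD4 progeny all fell in the CD8αβ progeny as well, and 8.49% of all genes tested fell in both. A further 13 fell in the CD8αβ progeny and did not pass the test in the CD4 progeny. The loader subunit gene Rfc2 rose in both, as 9.47% of all genes did, Gins2 and Chaf1a rose in the CD4 progeny, Rpa1 rose in the CD8αβ progeny, and Rpa2 rose in the first and fell in the second. The remaining 2, Gins1 and E2f1, passed in neither. Without the 4 libraries with Xist, each CD8αα group is a single library that is assumed to vary like the other groups. In that fit 11 of the 23 and 27 of the 37 were called lower again, 1 of the 4 (Rfc2) was called higher again in the CD4 progeny, and 0 of the 2 in the CD8αβ progeny. Of the 13393 genes tested in that fit 4.85% and 5.44% were called lower, and 4.70% and 5.17% higher.

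**Figure D1:**
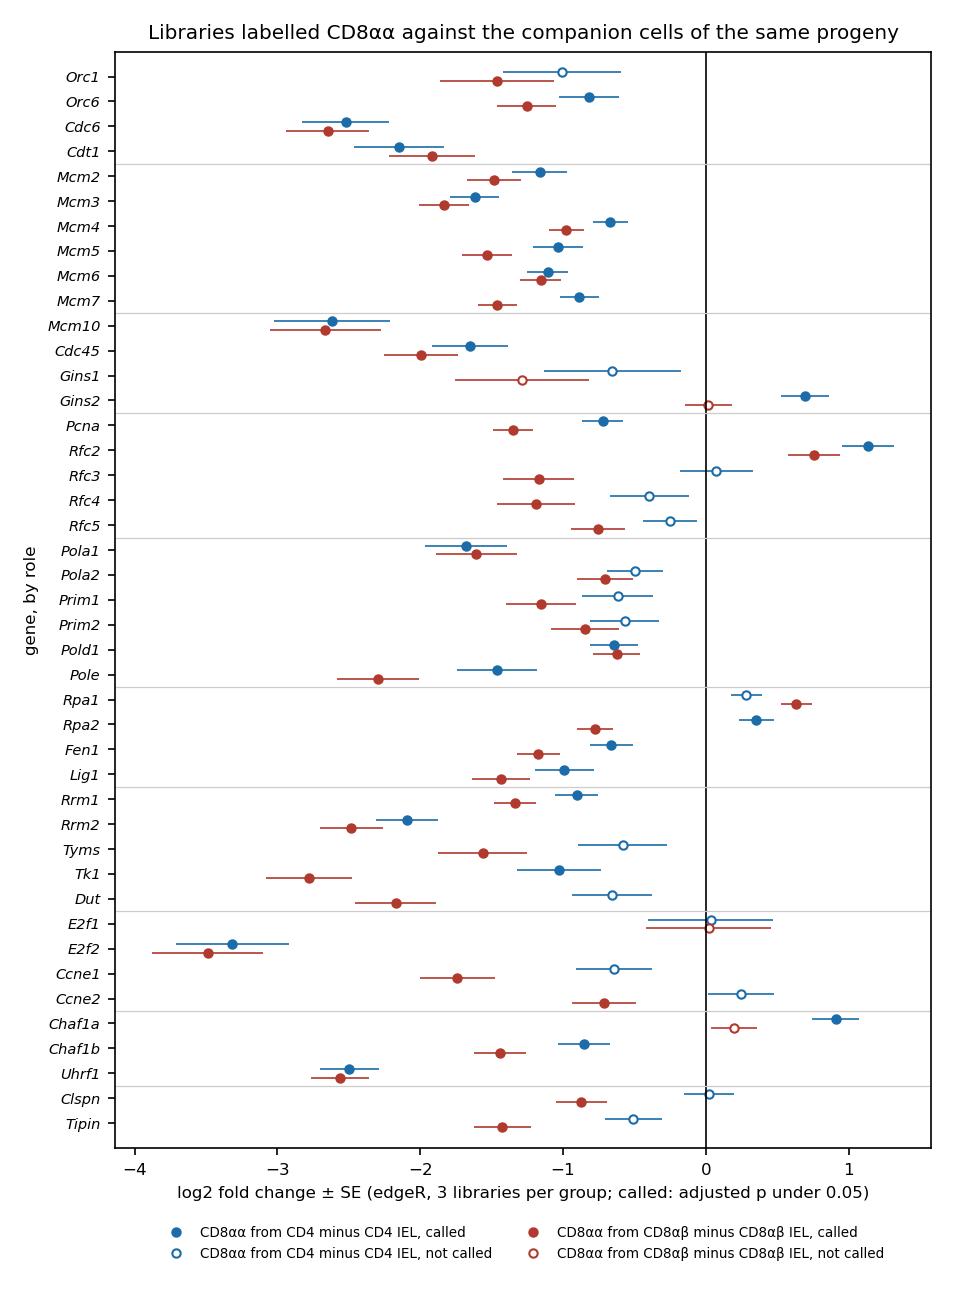
Log2 fold change (x axis, ± SE) of each of the 43 genes (y axis, by role) between CD8αα libraries and companion cells, in the CD4 progeny (blue) and the CD8αβ progeny (red), with filled points for adjusted p under 0.05 (edgeR, 3 libraries per group). Most points lie left of 0, with medians of −0.67 and −1.35, and Rfc2 lies right of 0 in both.

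The companion groups stood above the CD8αα groups for most genes. CD8αβ IEL had the highest mean of the 4 groups for 37 of the 43, and for 32 of these CD4 IEL came second. Summed over the 43, the level ran from 5363 to 7031 CPM over the CD8αβ IEL libraries and from 3657 to 4297 over CD4 IEL. It ran from 2987 to 3199 over CD8αα from CD8αβ and from 2598 to 2818 over CD8αα from CD4. These 4 ranges do not overlap. The CD8αα mean was 67.1% of the companion mean in the CD4 progeny against 50.5% in the CD8αβ progeny. By role, the CD8αα share of the companion level was smallest for licensing in the CD4 progeny (31.4%, with 27.7% in the other) and for nucleotide synthesis in the CD8αβ progeny (26.9%, with 46.3% in the other). It was largest for the clamp and loader genes in the CD4 progeny (117%, with 72.1% in the other) and for single-strand binding and Okazaki fragment genes in the CD8αβ progeny (96.6%, with 107% in the other). Abundant genes dominate these sums. Rfc2 gave 225 of 405 CPM of the former in CD8αα from CD4, and Rpa1 640 of 880 CPM of the latter in CD8αα from CD8αβ. The median log2 fold change was −0.25 for the clamp and loader genes in the CD4 progeny. It was −0.98 for the single-strand binding and Okazaki fragment genes in the CD8αβ progeny. Of the 43 genes 13 overlap another annotated gene (Orc1, Cdt1, Mcm7, Cdc45, Gins2, Rfc4, Rfc5, Pole, Fen1, Lig1, Tk1, Ccne2 and Chaf1a), so their counts are less certain.

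**Figure D2:**
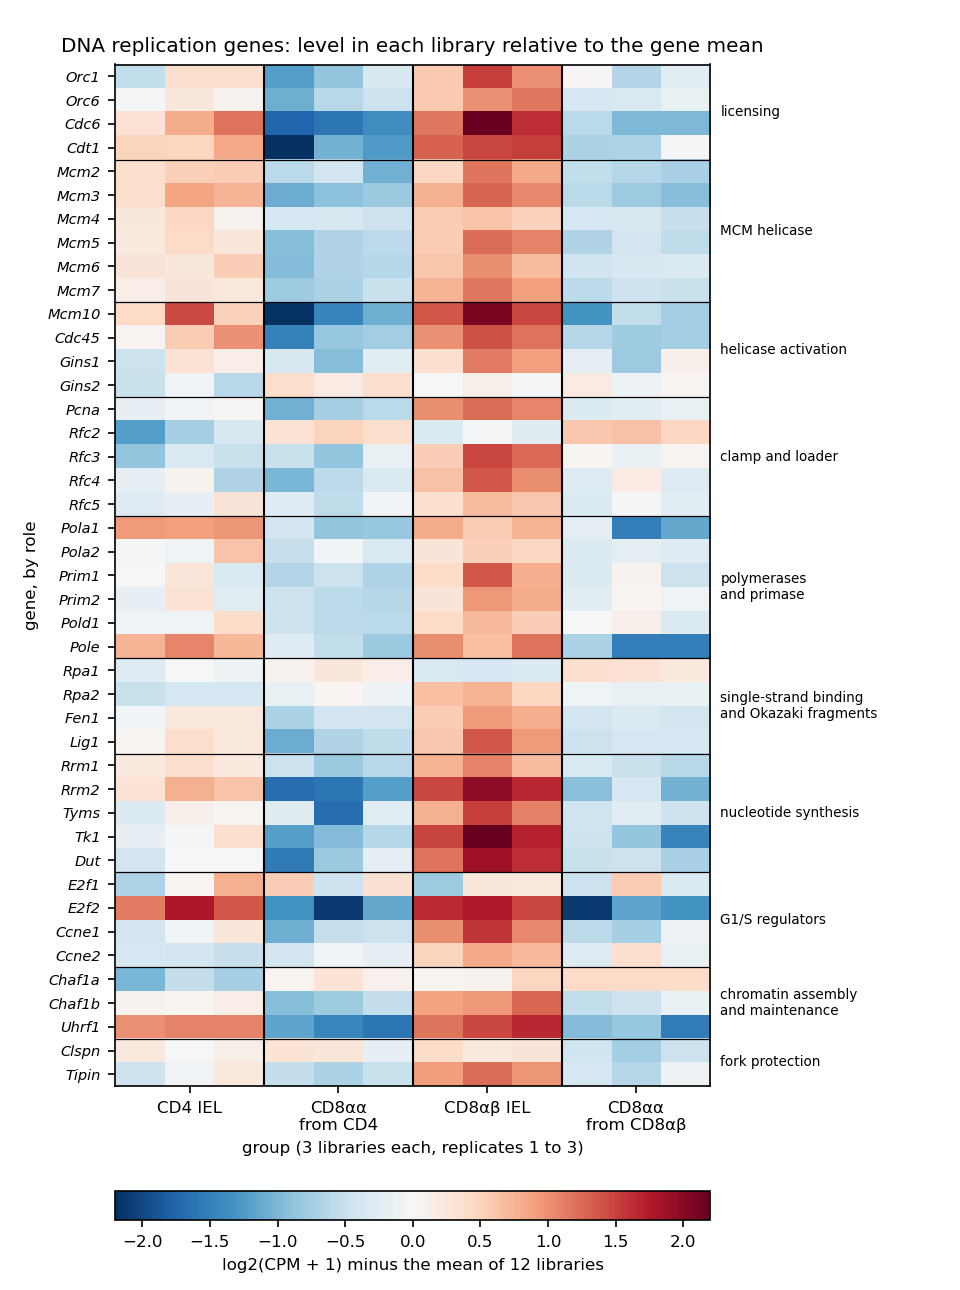
Level of each of the 43 genes (y axis, by role) in each of the 12 libraries (x axis, replicates 1 to 3 of each group), as log2(CPM + 1) minus the gene's mean over the 12 libraries. Red is above and blue below that mean, and the CD8αβ IEL columns are red for most genes; this group had the highest mean for 37 of 43.

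Expression per length ranged widely. In CPM per kilobase of the longest protein-coding transcript, the 43 genes ran from 3.04 (Orc1) to 93.9 (Rpa1) in CD4 IEL. In CD8αβ IEL the range was 5.26 (Pole) to 187 (Pcna). In CD8αα from CD4 they ran from 0.607 to 114 and in CD8αα from CD8αβ from 0.609 to 126, with E2f2 lowest and Rpa1 highest in both. A member had between 13 reads (Mcm10 and E2f2) and 7170 reads (Rpa1) in a library, and 39 of the 43 had at least 20 reads in every library.

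Because many of these genes are known E2F targets and 23 of the 43 fell in both progenies, promoter sequence is shown for the members that carry the E2F motif upstream of their start. RefSeq promoter windows (GRCm38.p6, 250 bases before to 50 after the transcript start) were found for 35 of the 43. The motif searched was TTTCGCGC or TTTGGCGC on both strands, which can overlap each other on opposite strands. It was present in 12 of the 35 members (34.3%) and in 0.929% of the 27025 genes with a window. The stretches below are printed 5′ to 3′ on the strand of the gene, with the motif in capitals, as GCGCGAAA or GCGCCAAA where it lies on the opposite strand, and overlapping matches run together.
Mcm6 (chr1:128359736-128359835, minus strand): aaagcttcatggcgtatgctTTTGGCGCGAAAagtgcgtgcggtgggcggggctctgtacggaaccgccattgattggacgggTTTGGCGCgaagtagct
Mcm5 (chr8:75109337-75109396, plus strand): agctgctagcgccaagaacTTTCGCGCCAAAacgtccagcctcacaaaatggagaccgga
Uhrf1 (chr17:56304102-56304161, plus strand): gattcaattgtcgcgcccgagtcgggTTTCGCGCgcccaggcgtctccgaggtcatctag
Pola1 (chrX:93632260-93632319, minus strand): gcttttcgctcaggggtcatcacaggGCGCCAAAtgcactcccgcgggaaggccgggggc
Orc1 (chr4:108579394-108579453, plus strand): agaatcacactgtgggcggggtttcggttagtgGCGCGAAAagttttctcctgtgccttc
Rfc3 (chr5:151651209-151651268, minus strand): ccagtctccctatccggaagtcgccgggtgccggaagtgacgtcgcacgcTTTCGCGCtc
Mcm6 holds 3 matches and Mcm5 2, and in each an overlapping pair on opposite strands reads as 1 longer stretch of capitals. In Cdt1, Mcm3, Mcm7, Lig1, E2f2 and Clspn the match lies after the start. All 12 genes with the motif fell in the CD8αβ progeny and 9 in the CD4 progeny, against 20 and 12 of the 23 members without it. A match is a description of these letters, and binding was not measured. The list was made of replication genes, many of them known E2F targets, so a share above that of all genes was likely beforehand. Whether E2F has a part in these changes was not tested. The CCAAT box (CCAAT, both strands) was in 21 of the 35 members (60.0%) and 41.1% of all genes with a window, and the CHR motif of late cell cycle genes (TTTGAA, both strands) in 4 (11.4%) and 20.2%.

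**Figure D3:**
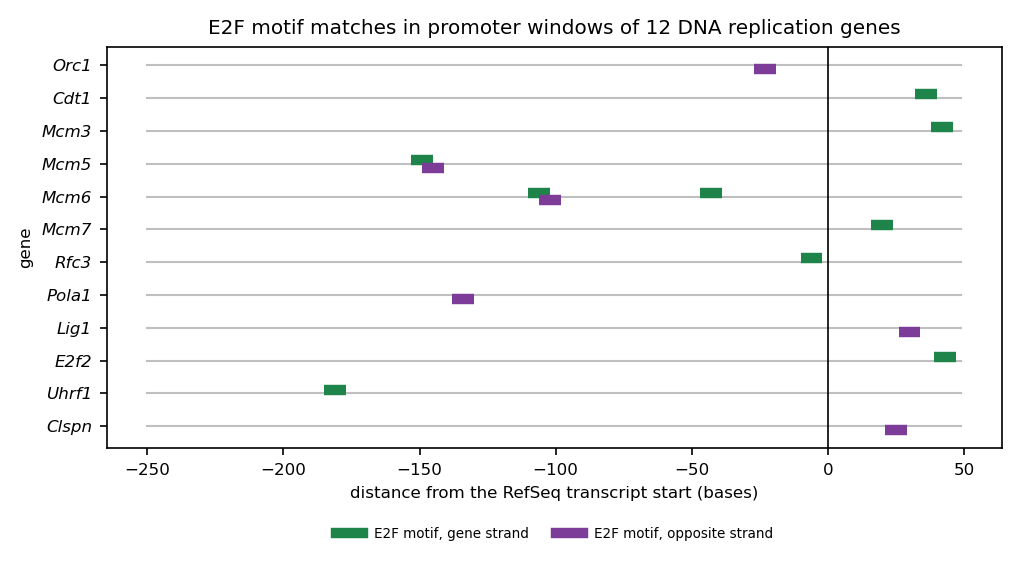
Position of E2F motif matches (TTTCGCGC or TTTGGCGC) in the promoter windows of the 12 members that hold one, as distance in bases from the RefSeq transcript start (x axis), on the strand of the gene (green) or the opposite strand (purple). Matches lie upstream in 6 genes and after the start in the other 6.

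Genes of origin licensing were lower in the CD8αα libraries. All 4 (Orc1, Orc6, Cdc6 and Cdt1) fell in the CD8αβ progeny and 3 in the CD4 progeny, where Orc1 had a log2 fold change of −1.01 (edgeR adjusted p = 0.0841). Cdc6 (ENSMUSG00000017499, chromosome 11, 98907801 to 98923940), the ATPase that joins the origin recognition complex to load MCM2-7, was at 29.8, 42.7 and 55.1 CPM in CD4 IEL against 6.32, 7.22 and 8.58 in CD8αα from CD4, and 53.8, 110.3 and 75.1 in CD8αβ IEL against 15.3, 11.4 and 11.4 in CD8αα from CD8αβ. All CD8αα libraries lay below all companion libraries of either progeny. The log2 fold change was −2.52 ± 0.30 (SE) in the CD4 progeny against −2.65 ± 0.29 in the CD8αβ progeny (edgeR adjusted p = 3.22e-05 and 1.28e-05). Cdt1, its partner in loading, fell by 2.15 and 1.92 on the log2 scale (edgeR adjusted p = 1.72e-04 and 2.67e-04), but it overlaps the predicted gene Gm20388 on the same strand, so its counts are uncertain. Orc6 (ENSMUSG00000031697, chromosome 8, 85299632 to 85308278), the smallest subunit of the origin recognition complex, had the highest level per length of the 4. It was at 31.0, 38.4 and 33.7 CPM in CD4 IEL against 14.7, 20.7 and 22.8 in CD8αα from CD4, and 48.2, 65.1 and 72.9 in CD8αβ IEL against 24.4, 25.2 and 28.4 in CD8αα from CD8αβ. The CD8αα libraries were again below the companions without overlap, with log2 fold changes of −0.82 ± 0.21 and −1.26 ± 0.21 (edgeR adjusted p = 0.00970 and 4.01e-04). The call of Orc1 in the CD8αβ progeny (−1.46, edgeR adjusted p = 0.0123) ended without CD8αβ IEL replicate 2 (0.0567) and without CD8αα from CD8αβ replicate 2 (0.0526), and in the CD4 progeny Orc1 was called without CD4 IEL replicate 1 (0.0401). The other origin recognition subunit genes Orc2 to Orc5, which are not among the 43 and were picked after their values were seen, were not called in either progeny, with log2 fold changes between −0.27 and 0.08.

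The 6 subunit genes of the MCM2-7 helicase fell in both progenies, each without overlap between the groups. Their log2 fold changes ran from −0.67 (Mcm4) to −1.62 (Mcm3) in the CD4 progeny and from −0.98 (Mcm4) to −1.83 (Mcm3) in the CD8αβ progeny. Mcm3 (ENSMUSG00000041859, chromosome 1, 20802974 to 20820278) was at 216, 305 and 277 CPM in CD4 IEL against 77.4, 88.6 and 93.6 in CD8αα from CD4, and 286, 404 and 345 in CD8αβ IEL against 109.7, 94.9 and 85.6 in CD8αα from CD8αβ. Its CD8αα libraries reached at most 109.7 CPM and its companion libraries at least 216 CPM (edgeR adjusted p = 1.06e-05 and 2.85e-06). Mcm6 (ENSMUSG00000026355, chromosome 1, 128331591 to 128359656), whose promoter stretch is printed above, was the most abundant of the 6 per length, averaged over the 12 libraries. It was at 372, 365 and 444 CPM in CD4 IEL against 157, 193 and 198 in CD8αα from CD4, and 468, 624 and 491 in CD8αβ IEL against 226, 240.5 and 244 in CD8αα from CD8αβ. The change was −1.11 ± 0.14 in the CD4 progeny against −1.16 ± 0.14 in the CD8αβ progeny (edgeR adjusted p = 6.61e-05 and 3.83e-05). The subunits form a ring with 1 copy of each, and their transcript levels per length lay close together. The highest was 1.70 times the lowest in CD4 IEL (90.3 CPM per kilobase for Mcm6, 53.1 for Mcm7), 1.38 times in CD8αβ IEL, and 1.61 and 1.74 times for CD8αα from CD4 and from CD8αβ. The median of the 6 was 70.9 and 95.5 CPM per kilobase in CD4 IEL and CD8αβ IEL, and 30.8 and 33.5 in their CD8αα counterparts.

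Genes that activate the loaded helicase split. Mcm10 and Cdc45 fell in both progenies, Gins2 rose in the CD4 progeny, and Gins1 passed in neither. Mcm10 (ENSMUSG00000026669, chromosome 2, 4989714 to 5012791), which helps to open the double ring, was at 18.9, 38.9 and 19.8 CPM in CD4 IEL against 2.22, 4.35 and 5.93 in CD8αα from CD4, and 36.6, 60.6 and 39.4 in CD8αβ IEL against 4.86, 9.04 and 7.70 in CD8αα from CD8αβ. Low as these counts were, no CD8αα library reached a companion library (log2 fold change −2.62 ± 0.41 and −2.66 ± 0.39, edgeR adjusted p = 2.71e-04 and 1.40e-04). Cdc45 (ENSMUSG00000000028, chromosome 16, 18780447 to 18811987), a subunit of the moving helicase, was at 26.7, 38.2 and 52.3 CPM in CD4 IEL against 8.54, 13.9 and 14.7 in CD8αα from CD4, and 52.7, 69.4 and 60.1 in CD8αβ IEL against 16.3, 14.5 and 14.9 in CD8αα from CD8αβ, again with no overlap (log2 fold change −1.65 ± 0.26 and −1.996 ± 0.26, edgeR adjusted p = 3.59e-04 and 5.61e-05). Gins1 and Gins2 encode 2 of the 4 subunits of GINS, the third part of that helicase. Gins1 was at 3.05, 6.003 and 5.24 CPM in CD4 IEL against 3.42, 1.95 and 3.75 in CD8αα from CD4, and 6.24, 11.4 and 9.55 in CD8αβ IEL against 3.83, 2.23 and 5.06 in CD8αα from CD8αβ. It had few reads, 17 to 108 in a library. Its groups overlapped in the CD4 progeny and not in the CD8αβ progeny, where its change of −1.29 ± 0.47 just missed the threshold (edgeR adjusted p = 0.0518). DESeq2 called it (0.0214), as did the fits without CD4 IEL replicate 1 (0.0433) and CD8αβ IEL replicate 1 (0.0384). Gins2 (ENSMUSG00000031821, chromosome 8, 120578633 to 120589304) was at 38.4, 51.0 and 35.2 CPM in CD4 IEL against 70.9, 61.1 and 70.1 in CD8αα from CD4, and 53.8, 59.1 and 53.2 in CD8αβ IEL against 61.4, 50.1 and 56.6 in CD8αα from CD8αβ. It was higher in all 3 CD8αα libraries than in all 3 CD4 IEL libraries (0.70 ± 0.17, edgeR adjusted p = 0.00652), and in the CD8αβ progeny the groups overlapped (edgeR adjusted p = 0.953). Gins2 lies opposite Gse1 and Gm20388, and the counting of strand is not given in the sources used here, so its rise is uncertain.

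The sliding clamp gene fell in both progenies, and of its loader genes 1 rose in both and 3 fell in the CD8αβ progeny. Pcna (ENSMUSG00000027342, chromosome 2, 132249162 to 132253314), the clamp that tethers polymerases to DNA, was at 115, 126 and 133 CPM in CD4 IEL against 62.2, 78.3 and 86.3 in CD8αα from CD4, and 267, 308 and 276 in CD8αβ IEL against 106, 110.4 and 117 in CD8αα from CD8αβ. It had the highest level per length of any of the 43 genes in CD8αβ IEL, and the CD8αα libraries lay below their companions in both progenies. The log2 fold change was −0.72 ± 0.14 in the CD4 progeny against −1.35 ± 0.14 in the CD8αβ progeny (edgeR adjusted p = 0.00172 and 8.06e-06). Rfc2 (ENSMUSG00000023104, chromosome 5, 134582690 to 134598328), a subunit of the replication factor C loader that opens the clamp, ran the other way. It was at 72.8, 102 and 134 CPM in CD4 IEL against 212, 241 and 224 in CD8αα from CD4, and 138, 167 and 142 in CD8αβ IEL against 256, 265 and 235 in CD8αα from CD8αβ. Every CD8αα library was above every companion library, and the gene rose in both progenies, by 1.13 ± 0.18 and 0.76 ± 0.18 on the log2 scale (edgeR adjusted p = 4.05e-04 and 0.00591), with no overlapping gene in the annotation. In the fit without the libraries with Xist the values were 1.13 and 0.84 (adjusted p = 0.0440 and 0.120). The partner subunit genes Rfc3, Rfc4 and Rfc5 fell by 1.17, 1.19 and 0.76 on the log2 scale in the CD8αβ progeny, and did not pass in the CD4 progeny (0.07, −0.40 and −0.25). Rfc1, the large subunit and not among the 43, was not called in either (−0.24 and −0.12). Per length, Rfc5 was the most abundant of the 5 loader subunits in CD4 IEL, at 26.4 CPM per kilobase, and Rfc3 in CD8αβ IEL, at 63.4. Rfc2 was the most abundant in CD8αα from CD4 and CD8αα from CD8αβ, at 45.1 and 50.5.

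All 6 genes of the replicative polymerases and primase fell in the CD8αβ progeny. Pola1, Pold1 and Pole, of polymerases α, δ and ε, fell in the CD4 progeny. Pola2, Prim1 and Prim2 were at −0.50, −0.62 and −0.57 in the CD4 progeny (edgeR adjusted p = 0.0779, 0.0812 and 0.0994), where Prim1 and Prim2 were lower without overlap. Prim1 was called there with the replicate block, with the 2 groups alone and without CD8αβ IEL replicate 2 (edgeR adjusted p = 0.0286, 0.0325 and 0.0368). Pola2 was called there with library totals as the only scaling and without CD4 IEL replicate 2 (edgeR adjusted p = 0.0371 and 0.0438). Pola1 (ENSMUSG00000006678, chromosome X, 93304767 to 93632155), the catalytic subunit of polymerase α, was at 56.0, 54.7 and 57.7 CPM in CD4 IEL against 21.5, 15.3 and 15.8 in CD8αα from CD4, and 51.6, 42.9 and 49.6 in CD8αβ IEL against 24.8, 9.57 and 12.8 in CD8αα from CD8αβ. It was the only one of the 6 with a higher mean in CD4 IEL than in CD8αβ IEL, and its CD8αα libraries were below the companions without overlap (−1.68 ± 0.29 and −1.61 ± 0.29, edgeR adjusted p = 0.000622 and 0.000700). Pole (ENSMUSG00000007080, chromosome 5, 110286306 to 110337474), of the leading strand polymerase ε, was at 32.1, 40.3 and 31.8 CPM in CD4 IEL against 15.2, 12.5 and 10.1 in CD8αα from CD4, and 39.0, 30.1 and 44.0 in CD8αβ IEL against 11.12, 5.85 and 5.86 in CD8αα from CD8αβ. Its CD8αα libraries were below the companions without overlap, with log2 fold changes of −1.46 ± 0.28 and −2.30 ± 0.29 (edgeR adjusted p = 0.00145 and 3.75e-05). Pold1 (ENSMUSG00000038644, chromosome 7, 44532746 to 44548849), of the lagging strand polymerase δ, was at 105, 106 and 148 CPM in CD4 IEL against 81.6, 74.5 and 73.7 in CD8αα from CD4, and 148, 184 and 163 in CD8αβ IEL against 111, 120.5 and 89.3 in CD8αα from CD8αβ. No CD8αα library reached a companion library of its progeny, and the changes were smaller, at −0.64 ± 0.17 and −0.63 ± 0.17 (edgeR adjusted p = 0.0112 and 0.0113). The first call ended without CD4 IEL replicate 3 (0.0506), the second when CD8αα from CD8αβ replicate 3 was left out (0.0605), and the Prim2 call in the CD8αβ progeny ended without CD8αβ IEL replicate 2 (0.0620) or CD8αα from CD8αβ replicate 1 (0.0603).

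The accessory subunit genes of polymerases δ and ε were not called lower in either progeny. These are Pold2, Pold3, Pold4, Pole2, Pole3 and Pole4, which are not among the 43, and of them Pole3 rose in the CD4 progeny (0.78, edgeR adjusted p = 0.0169). Over the 14 measured subunits of the origin recognition, GINS, clamp loader, replication protein A, polymerase δ and polymerase ε complexes that are outside the 43, a set made after the values were seen, 1 was called in the CD4 progeny, Pole3, and 1 in the CD8αβ progeny, where Gins3 was lower (−1.10). The median log2 fold changes of these 14 were 0.05 and −0.10. For the 12 subunits of the same complexes among the 43, 3 fell and 3 rose in the CD4 progeny and 8 fell and 2 rose in the CD8αβ progeny, with medians of −0.32 and −0.97.

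Replication protein A coats single-stranded DNA, and its subunit genes Rpa1 and Rpa2 each rose in 1 progeny. Rpa1 (ENSMUSG00000000751, chromosome 11, 75298166 to 75348324), its large subunit, was at 426, 520.4 and 483 CPM in CD4 IEL against 551, 616 and 574 in CD8αα from CD4, and 414, 404 and 420.3 in CD8αβ IEL against 670.2, 650.4 and 600.3 in CD8αα from CD8αβ. The CD8αα libraries were above the companion libraries in both progenies without overlap, with log2 fold changes of 0.28 ± 0.11 and 0.63 ± 0.11, of which the second passed the test (edgeR adjusted p = 0.0726 and 0.000622). DESeq2 called the first as well (0.0356). Rpa2 (ENSMUSG00000028884, chromosome 4, 132768332 to 132778752), the middle subunit, was at 95.6, 103 and 103 CPM in CD4 IEL against 119.9, 139.6 and 125 in CD8αα from CD4, and 214, 228 and 188 in CD8αβ IEL against 126, 121 and 121 in CD8αα from CD8αβ. CD8αα libraries of both origins lay between 119.9 and 139.6 CPM, above all CD4 IEL libraries and below all CD8αβ IEL libraries. The fall in the CD8αβ progeny was −0.78 ± 0.12 (edgeR adjusted p = 2.92e-04). The rise in the CD4 progeny was 0.35 ± 0.12 (edgeR adjusted p = 0.0471), and of the 12 fits that leave out 1 library this call held only without CD8αβ IEL replicate 2, with adjusted p of 0.0427 to 0.169 over the 12. It was also lost with library totals as the only scaling, with no filter on low counts, with the replicate block (0.0526) and in a fit of the 2 groups alone. The 2 genes that finish lagging strand fragments fell in both progenies. Lig1 (ENSMUSG00000056394, chromosome 7, 13277283 to 13311433), the ligase that seals them, was at 75.8, 96.4 and 86.3 CPM in CD4 IEL against 34.0, 46.2 and 49.8 in CD8αα from CD4, and 111, 192 and 142 in CD8αβ IEL against 52.4, 56.8 and 55.7 in CD8αα from CD8αβ. No groups compared overlapped (−0.99 ± 0.20 and −1.43 ± 0.20, edgeR adjusted p = 0.00240 and 1.12e-04). Fen1, the flap endonuclease, had log2 fold changes of −0.66 and −1.17 (edgeR adjusted p = 0.00492 and 5.00e-05), though it overlaps predicted transcripts on the opposite strand.

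**Figure D4:**
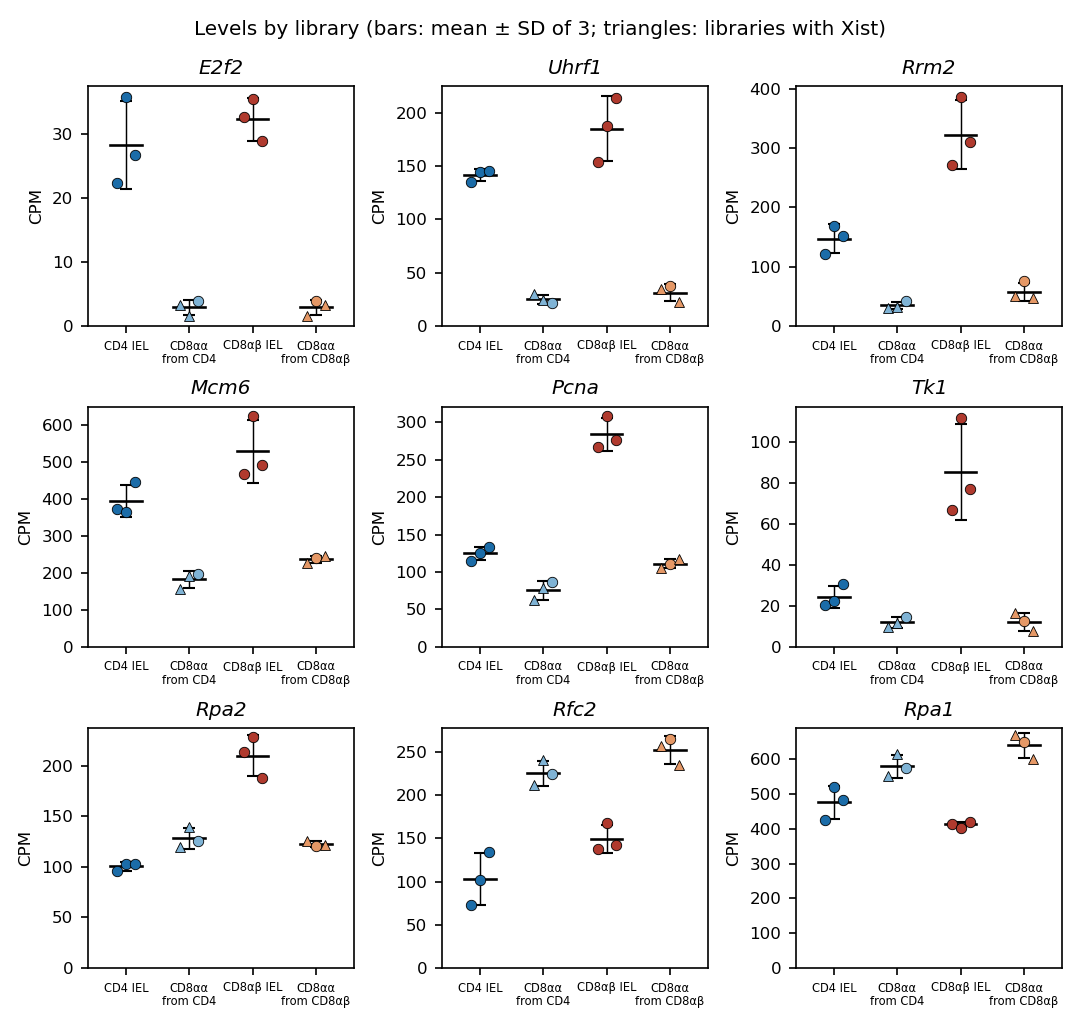
CPM (y axis) of 9 of the genes in each library, by group (x axis), with the mean and SD of 3 libraries as bars and triangles for the 4 libraries with Xist. E2f2, Uhrf1, Rrm2, Mcm6, Pcna and Tk1 are lower in CD8αα libraries, Rpa2 lies between the companion groups, and Rfc2 and Rpa1 are higher in CD8αα libraries, with Rpa1 short of the threshold in the CD4 progeny.

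The 5 genes of deoxynucleotide synthesis fell in the CD8αβ progeny, with a median of −2.17, and Rrm1, Rrm2 and Tk1 fell in the CD4 progeny. Rrm2 (ENSMUSG00000020649, chromosome 12, 24708241 to 24714146), the S phase subunit of ribonucleotide reductase, was at 121, 169 and 152 CPM in CD4 IEL against 29.7, 31.9 and 41.8 in CD8αα from CD4, and 272, 387 and 309.5 in CD8αβ IEL against 51.0, 74.9 and 47.2 in CD8αα from CD8αβ. Its CD8αα libraries reached at most 74.9 CPM and its companion libraries at least 121 CPM. The log2 fold change was −2.09 ± 0.22 in the CD4 progeny against −2.48 ± 0.22 in the CD8αβ progeny (edgeR adjusted p = 9.20e-06 and 1.63e-06), larger in size than that of the partner subunit gene Rrm1 (−0.91 and −1.34). Tk1 (ENSMUSG00000025574, chromosome 11, 117815526 to 117826092), the thymidine salvage kinase, was at 20.4, 22.6 and 30.6 CPM in CD4 IEL against 9.56, 11.6 and 14.8 in CD8αα from CD4, and 67.0, 112 and 77.4 in CD8αβ IEL against 16.7, 12.5 and 7.93 in CD8αα from CD8αβ. The CD8αα libraries of both origins reached at most 16.7 CPM, and all CD8αβ IEL libraries were above all CD4 IEL libraries. The change was −1.03 ± 0.30 in the CD4 progeny against −2.78 ± 0.30 in the CD8αβ progeny (edgeR adjusted p = 0.0182 and 1.02e-05). The first call ended without CD4 IEL replicate 3 (0.0713) or either of CD8αα from CD4 replicates 1 (0.0693) and 2 (0.0600), and Tk1 overlaps Gm20708 and Afmid on the opposite strand. Tyms, which makes thymidylate, and Dut, which clears dUTP, were at −0.58 and −0.65 in the CD4 progeny (edgeR adjusted p = 0.186 and 0.0994), where groups overlapped, and fell in the CD8αβ progeny (−1.56 and −2.17).

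The G1/S regulators held the largest log2 fold change of the 43 in both comparisons, that of E2f2. E2f2 (ENSMUSG00000018983, chromosome 4, 136172394 to 136196057), an activator E2F whose promoter window holds the E2F motif itself, was at 22.4, 35.8 and 26.7 CPM in CD4 IEL against 3.25, 1.49 and 3.90 in CD8αα from CD4, and 32.6, 35.5 and 28.8 in CD8αβ IEL against 1.496, 3.83 and 3.33 in CD8αα from CD8αβ. The CD8αα libraries reached at most 3.90 CPM and the companion libraries at least 22.4 CPM, a log2 fold change of −3.32 ± 0.39 and −3.49 ± 0.39 (edgeR adjusted p = 2.91e-05 and 1.34e-05). These values rest on few reads, 57 over the 3 libraries of CD8αα from CD4, with 81 over those of CD8αα from CD8αβ. E2f1 (ENSMUSG00000027490, chromosome 2, 154559407 to 154569892), of the same activator family, was at 10.4, 17.6 and 30.1 CPM in CD4 IEL against 25.4, 12.2 and 21.9 in CD8αα from CD4, and 9.43, 20.4 and 20.2 in CD8αβ IEL against 11.97, 25.5 and 13.3 in CD8αα from CD8αβ. Its libraries overlapped in every comparison, and the changes of 0.03 ± 0.44 and 0.02 ± 0.44 missed the threshold (edgeR adjusted p = 0.968 and 0.982). Ccne1 (ENSMUSG00000002068, chromosome 7, 38097984 to 38107534), the cyclin that drives entry into S phase with Cdk2, was at 18.9, 24.0 and 30.7 CPM in CD4 IEL against 11.4, 17.5 and 17.9 in CD8αα from CD4, and 52.7, 76.9 and 54.0 in CD8αβ IEL against 16.7, 14.9 and 23.4 in CD8αα from CD8αβ. It was lower in the CD8αα libraries without overlap in both progenies (−0.64 ± 0.27 and −1.74 ± 0.26) and passed the test in the CD8αβ progeny (edgeR adjusted p = 0.0894 and 2.03e-04). Ccne2 was at 0.25 and −0.71, of which the second passed (edgeR adjusted p = 0.467 and 0.0279). That call ended without CD8αβ IEL replicates 2 (0.0863) and 3 (0.0502), without CD8αα from CD8αβ replicates 1 (0.114) and 3 (0.102), and in a fit of the 2 groups alone (0.0621), and Ccne2 overlaps Ints8 on the opposite strand.

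Of the genes that rebuild chromatin behind the fork, Chaf1b and Uhrf1 fell in both progenies and Chaf1a rose in the CD4 progeny. Uhrf1 (ENSMUSG00000001228, chromosome 17, 56303321 to 56323486), which brings the maintenance methyltransferase to newly copied DNA, had the smallest adjusted p of the 43 in both comparisons. It was at 135, 145 and 145 CPM in CD4 IEL against 29.5, 24.3 and 21.4 in CD8αα from CD4, and 153, 187 and 214 in CD8αβ IEL against 34.2, 37.2 and 22.4 in CD8αα from CD8αβ. The CD8αα libraries reached at most 37.2 CPM and the companion libraries at least 135 CPM (−2.50 ± 0.21 and −2.56 ± 0.20, edgeR adjusted p = 1.18e-06 and 6.46e-07). Chaf1a and Chaf1b encode the large and middle subunits of the chromatin assembly factor CAF-1. Chaf1a (ENSMUSG00000002835, chromosome 17, 56040416 to 56068026) was at 33.9, 47.6 and 41.5 CPM in CD4 IEL against 71.9, 85.1 and 73.7 in CD8αα from CD4, and 71.5, 72.8 and 96.2 in CD8αβ IEL against 92.4, 91.5 and 91.6 in CD8αα from CD8αβ. It was higher in all CD8αα than in all CD4 IEL libraries (0.91 ± 0.17, edgeR adjusted p = 0.00110), and the groups of the CD8αβ progeny overlapped (0.20 ± 0.16, edgeR adjusted p = 0.410). It shares 982 bases with Ubxn6 on the opposite strand. Chaf1b fell in both (−0.86 and −1.44, edgeR adjusted p = 0.00313 and 3.92e-05), so the CAF-1 subunit genes moved in opposite directions in the CD4 progeny.

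Both fork protection genes fell in the CD8αβ progeny and neither passed in the CD4 progeny. Tipin (ENSMUSG00000032397, chromosome 9, 64281607 to 64304792), which travels with the fork as the partner of Timeless, was at 36.3, 47.9 and 59.5 CPM in CD4 IEL against 34.7, 30.7 and 35.6 in CD8αα from CD4, and 96.8, 119.5 and 99.5 in CD8αβ IEL against 38.6, 32.3 and 46.8 in CD8αα from CD8αβ. The CD8αα libraries were below the companions without overlap in both progenies, with log2 fold changes of −0.51 ± 0.20 and −1.42 ± 0.20 (edgeR adjusted p = 0.0738 and 9.75e-05). Clspn (ENSMUSG00000042489, chromosome 4, 126556935 to 126593903), claspin, the adaptor of the replication checkpoint, was at 44.4, 38.2 and 41.6 CPM in CD4 IEL against 47.0, 45.7 and 33.5 in CD8αα from CD4, and 50.7, 44.3 and 46.6 in CD8αβ IEL against 27.9, 22.1 and 27.2 in CD8αα from CD8αβ. The CD8αα from CD8αβ libraries were the 3 lowest of the 12. It fell in the CD8αβ progeny (−0.87 ± 0.18, edgeR adjusted p = 0.00185) and was at 0.02 ± 0.18 in the CD4 progeny (edgeR adjusted p = 0.943).

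Whether the change itself differed between the progenies was tested as an interaction in the same model. Of the 43 genes 2, Rpa2 and Tk1, were called and 0 were called in the other direction, where 2.56% of all genes were called, 1.20% higher and 1.35% lower. Here higher means that the change was less negative, or more positive, in the CD4 progeny. The median interaction of the 43 was 0.45, and that of all genes −0.00. At an unadjusted p under 0.05 there were 15 higher and 1 lower, against 1230 and 1072 of the 12622 genes tested. DESeq2 called 8 and 0, against 414 and 392 of all genes. For Rpa2 the difference of the log2 fold changes was 1.13 ± 0.17 (edgeR adjusted p = 0.00371), and it was called without each of the 12 libraries in turn. For Tk1 it was 1.75 ± 0.41 (edgeR adjusted p = 0.0407), a call that held without 5 of the 12 libraries and ended without the other 7, with adjusted p of 0.0312 to 0.119, and it was lost with the replicate block (0.0581). Those 7 were CD4 IEL replicates 1 and 2, CD8αβ IEL replicate 2, CD8αα from CD4 replicates 2 and 3, and CD8αα from CD8αβ replicates 2 and 3. The count over the 43 ran from 1 to 4 with 1 library left out. It was 1 without CD4 IEL replicate 1 or 2, CD8αβ IEL replicate 2, CD8αα from CD4 replicate 3 or CD8αα from CD8αβ replicate 2 or 3, and 4 without CD8αβ IEL replicate 1. Without the 4 libraries with Xist 0 of the 43 were called, and 0.0523% of all genes higher and 0.0448% lower, with Rpa2 at 1.11 (adjusted p = 0.418).

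CD4 IEL and CD8αβ IEL differed in many of the 43 genes, and the CD8αα groups in few. These comparisons share libraries with those above and are not independent of them. Of the 43 genes 26 were lower in CD4 IEL than in CD8αβ IEL and 0 were higher, with 0 higher also at an unadjusted p under 0.05 and by DESeq2, where 29.0% of all genes were called, 16.0% lower and 12.9% higher. Without overlap, 31 were lower and 2 higher, and 21.5% and 20.1% of all genes. The median log2 fold change was −0.76, against 0.01 for all genes tested. In the fit without the libraries with Xist 21 were lower and 0 higher, where 11.2% of all genes were lower and 7.59% higher. All 5 clamp and loader genes and all 5 nucleotide synthesis genes were lower in CD4 IEL, whereas the 4 helicase activation genes did not pass. The largest differences were in Tk1 (−1.81), Dut (−1.73) and Rfc3 (−1.72), with edgeR adjusted p = 0.000634, 0.000686 and 3.93e-04. Of the clamp, loader and nucleotide genes, the call of Rfc2 ended without 10 of the 12 libraries (all but CD4 IEL replicate 3 and CD8αβ IEL replicate 1, adjusted p 0.00689 to 0.149), that of Rfc5 without replicates 1 and 2 of CD4 IEL and 2 and 3 of CD8αβ IEL (up to 0.110), and that of Tyms without CD4 IEL replicate 1 (0.0506). Of the other roles, the call of Cdt1 ended without 9 of the 12 libraries (edgeR adjusted p up to 0.128) and that of Mcm6 without 7 (up to 0.166). The calls of Prim2, Cdc6, Prim1 and Lig1 ended without 4, 3, 2 and 1 (up to 0.117, 0.132, 0.0645 and 0.0507). E2f2, Pole and Mcm10, which fell in the CD8αα libraries of both progenies, were at −0.19, −0.12 and −0.82 (edgeR adjusted p = 0.700, 0.779 and 0.104).

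Between CD8αα from CD4 and CD8αα from CD8αβ, the comparison of the series title, 1 of the 43 genes was higher (Clspn) and 1 lower (Pcna), where 4.33% of all genes were called, 1.87% higher and 2.46% lower. The mean was higher in CD8αα from CD8αβ for 36 of the 43, with a median log2 fold change of −0.22 against −0.03 for all genes, and 14 genes were lower and 1 higher without overlap, where 16.7% and 12.2% of all genes were. In the fit without the libraries with Xist 0 of the 43 were called, against 0.00747% of all genes higher (1 gene) and 0 lower. Clspn was at 47.0, 45.7 and 33.5 CPM in CD8αα from CD4 and 27.9, 22.1 and 27.2 in CD8αα from CD8αβ, without overlap (0.71 ± 0.18, edgeR adjusted p = 0.0396). Pcna was at 62.2, 78.3 and 86.3 and 106, 110.4 and 117 CPM, also without overlap (−0.56 ± 0.14, edgeR adjusted p = 0.0425). Both calls were close to the threshold. The Clspn call ended without CD8αα from CD4 replicate 1 or 2 or any of the CD8αα from CD8αβ libraries (adjusted p 0.0272 to 0.177 over the 12). The Pcna call ended without 8 of the 12 libraries (adjusted p 0.0360 to 0.226), these being CD4 IEL replicates 1 and 2, CD8αβ IEL replicate 3, CD8αα from CD4 replicates 1 and 2 and all of CD8αα from CD8αβ, and also with library totals as the only scaling (0.0726) or no filter on low counts (0.0662). By size the largest differences were in genes that were not called, with Cdt1 at −1.06 ± 0.31 and Cdc6 at −0.78 ± 0.30 (edgeR adjusted p = 0.0750 and 0.171).

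Other genes of the same pathways were described from further lists. Among all genes tested 13.5% fell and 15.0% rose in the CD4 progeny, and 15.1% fell and 16.1% rose in the CD8αβ progeny. Of 30 measured further genes of the fork and origin, 5 fell (16.7%) and 3 rose (10%) in the CD4 progeny, shares near those of all genes, with a median of −0.23. In the CD8αβ progeny 13 fell (43.3%), with a median of −0.42. Timeless, the partner of Tipin, was at 45.1, 56.0 and 49.7 CPM in CD4 IEL against 11.3, 12.5 and 12.5 in CD8αα from CD4, with 55.6, 71.8 and 69.2 in CD8αβ IEL against 16.6, 19.9 and 18.4 in CD8αα from CD8αβ. It fell without overlap in both (−2.05 ± 0.18 and −1.84 ± 0.17, edgeR adjusted p = 1.67e-06 and 2.78e-06). The origin kinase gene Cdc7 fell in both (−1.06 and −0.81), and the nuclease gene Dna2 and the clamp loading gene Dscc1 fell in the CD8αβ progeny (−3.93 and −2.30). Of 18 further nucleotide synthesis genes 6 fell in the CD4 progeny against 11 in the CD8αβ progeny, with 0 higher in each at an adjusted p under 0.05 and by DESeq2, and 0 and 1 higher at an unadjusted p under 0.05. Among them were Atic, of purine synthesis (−2.42 and −1.67), and Dck, the deoxycytidine kinase (−1.62 and −2.60). Ctps, which makes CTP, fell in the CD4 progeny (−1.71) and was at −0.38 in the CD8αβ progeny, and for this gene the difference between progenies passed the test (−1.33 ± 0.30, edgeR adjusted p = 0.0338). Shmt1, of folate metabolism, was at −1.42 and −2.87, and its call in the CD4 progeny ended without 9 of the 12 libraries, all but CD8αβ IEL replicates 1 and 2 and CD8αα from CD4 replicate 3 (adjusted p 0.0124 to 0.155).

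Among 28 further G1/S regulators 14 fell and 1 rose in the CD4 progeny, and 16 fell and 1 rose in the CD8αβ progeny (medians −0.62 and −0.86). The shares of all genes tested were 13.5% lower and 15.0% higher in the CD4 progeny, and 15.1% and 16.1% in the CD8αβ progeny. Mybl2, which works with E2F in S phase and G2, fell in both (−3.37 and −2.92), as did the E2F family genes E2f8, a repressor (−2.96 and −2.87), and E2f3, an activator (−1.96 and −3.51). E2f3 was at 0.683, 6.30 and 0.624 CPM in CD8αα from CD4, with replicate 2 the highest, and its call in the CD4 progeny ended without 9 of the 12 libraries, all but CD4 IEL replicate 3, CD8αβ IEL replicate 2 and CD8αα from CD4 replicate 2 (adjusted p 0.000566 to 0.148). The gene that rose in both was Ccnd2, cyclin D2, named after its values were seen, at 682, 729 and 886 CPM in CD4 IEL against 1223, 1010.0 and 1129 in CD8αα from CD4, with 633, 842 and 764 in CD8αβ IEL against 2196, 2033 and 1896 in CD8αα from CD8αβ. Its log2 fold change was 0.55 ± 0.14 and 1.45 ± 0.14 (edgeR adjusted p = 0.00877 and 3.85e-06). Of 18 S phase checkpoint and repair genes 5 and 7 fell, led by Fancd2 (−2.70 and −2.33) and Exo1 (−2.40 and −2.42), and the sensor kinase gene Atr, also named after its values were seen, was not called (0.49 and 0.64). Of 10 further chromatin assembly genes 7 and 6 fell, with Cdca7 at −2.55 and −2.60 and Hells, a remodeller that acts with it, at −1.55 and −2.60. In these last 2 lists 0 rose in either progeny, also at an unadjusted p under 0.05 and by DESeq2.

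Genes of mitosis had lower medians than those of replication. Of 25 mitosis genes 24 fell in the CD4 progeny (median −1.87) and 25 in the CD8αβ progeny (median −2.48). Of all genes tested 13.5% and 15.1% fell. Ccnb2, a cyclin of mitotic entry, was at −2.70 and −2.68, the checkpoint kinase gene Bub1 at −2.70 and −2.95, Ccnb1 at −2.55 and −3.54, and Ube2c, which acts with the anaphase-promoting complex, at −1.84 and −3.69. Summed over the 25, the level was 1184 to 1503 CPM in CD4 IEL against 348 to 445 in CD8αα from CD4, with 2488 to 2959 in CD8αβ IEL against 475 to 556 in CD8αα from CD8αβ. The CD8αα mean was 29.8% of the companion mean in the CD4 progeny against 18.9% in the CD8αβ progeny, where the replication sum was at 67.1% and 50.5%. The replication sum includes the abundant Rpa1 and Rfc2, whose means were higher in the CD8αα groups, so part of this gap comes from them. These means were 477 and 103 CPM in CD4 IEL against 580 and 225 in CD8αα from CD4. They were 412 and 149 CPM in CD8αβ IEL against 640 and 252 in CD8αα from CD8αβ. Divided by the replication sum of the same library, the mitosis sum was 0.322 to 0.350 in CD4 IEL against 0.134 to 0.159 in CD8αα from CD4, with 0.412 to 0.485 in CD8αβ IEL against 0.159 to 0.174 in CD8αα from CD8αβ. Every CD8αα library had a lower ratio than every companion library, and the CD8αβ IEL libraries were above those of CD4 IEL.

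**Figure D5:**
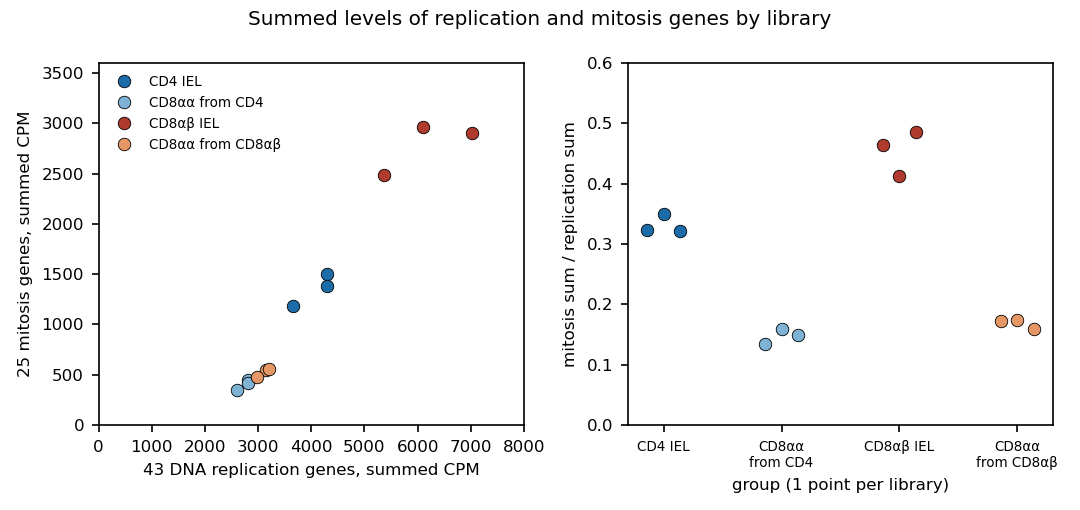
Left, summed CPM of the 25 mitosis genes (y axis) against that of the 43 replication genes (x axis), 1 point per library. Right, the ratio of the 2 sums by group, which runs from 0.134 to 0.174 in the CD8αα libraries, 0.322 to 0.350 for CD4 IEL, and 0.412 to 0.485 for CD8αβ IEL.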

How the data were processed

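Gene expression was measured by bulk RNA sequencing in 12 libraries of cells sorted from mouse intestine and labelled as T cells, 3 in each of 4 groups taken from the sample titles. The deposited values are raw counts per gene and library, not normalized. Reads were aligned with HISAT2 2.1.0 to mm10, per the submitters' processing notes. For the counting program, the annotation and the use of strand the labels hold no entry: not given in the sources used here. The table has 25965 rows and 25899 symbols. Of rows that share a symbol the one with the highest total was kept, and the 66 rows left out hold 0.0202% of the counts. Coordinates are those of the table (mm10).

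Differences were tested with edgeR 4.0.16 in R 4.3.3 on all 12 libraries with 1 mean per group (TMM scaling, filterByExpr with a minimum count of 10 and a minimum total of 15, quasi-likelihood F-test, two-sided). P-values were adjusted by Benjamini-Hochberg over the 12622 genes tested, and genes were called at adjusted p under 0.05. Log2 fold changes are edgeR's, their SE is the fold change divided by the square root of F, and CPM are counts over the TMM-scaled total in units of 1e6. CPM per kilobase used the longest protein-coding transcript of the GENCODE M21 basic set, in which 24986 of the rows were found, 99.95% of them on the same chromosome. The script was tested on simulated counts. Counting gave 3 reads as the limit behind a 0, or 0.271 to 0.534 CPM, which covers counting error only.

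Alternatives were library totals as the only scaling, DESeq2 1.42.0, no filter on low counts, the 2 groups alone, a replicate block, sums over shared symbols, each library left out, and the fit without the 4 CD8αα libraries with Xist. The 43 genes, the further lists and the tests were chosen with earlier results of these data known. Values in every library are given for the member with the highest mean CPM per kilobase in each role, the called members with the largest change in either progeny, and members called in the interaction, between the CD8αα groups, in neither progeny or against most members. Of each further list, the 2 called genes with the largest change in either progeny are named. Other genes named were chosen after their values were seen. Promoter windows came from RefSeq (GRCm38.p6). Replicates of a group differed by more than sampling noise, with a chi-square of 11.4 to 60.2 per gene.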

Additional observations from a re-analysis of the deposited data

Results flagged for a closer look

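For 2 of the 43 genes the change in CD8αα libraries differed between the progenies, CD4 against CD8αβ, by an interaction test. Among all genes tested 2.56% were called, 1.20% higher and 1.35% lower. For Rpa2 the log2 fold change was 0.35 in the CD4 progeny against −0.78 in the other, a difference of 1.13 ± 0.17 (edgeR adjusted p = 0.00371). For Tk1 it was −1.03 and −2.78, a difference of 1.75 ± 0.41 (edgeR adjusted p = 0.0407), and Tk1 was called without 5 of the 12 libraries in turn. The Tk1 call was lost with the replicate block (edgeR adjusted p = 0.0581), and Tk1 overlaps Gm20708 and Afmid on the opposite strand. Without the 4 libraries with Xist neither was called, with Rpa2 at 1.11 (adjusted p = 0.418) and 1 CD8αα library left in each progeny.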

How the results depend on the processing

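The 23 genes called lower in the CD4 progeny and the 37 in the CD8αβ progeny kept their direction in every alternative run. With 1 library left out the counts were 21 to 25 and 34 to 38 lower, and 3 to 4 and 2 higher. CD4 IEL against CD8αβ IEL gave 18 to 29 lower. Without the 4 libraries with Xist, the CD4 progeny had 1 higher and 11 lower, the CD8αβ progeny 0 higher, the CD8αα groups compared with each other 0 and 0, and the interaction 0 higher. For genes lower in CD8αα from CD4 than in CD8αα from CD8αβ, the count of 1 became 0 with library totals, 3 with DESeq2, 0 with no filter on low counts and 3 with the replicate block, and 0 to 2 with 1 library left out; the count of 1 higher ran from 0 to 1. Library totals gave 1 gene higher in CD4 IEL than in CD8αβ IEL. DESeq2 gave 8 higher in the interaction, where it called 414 of all 12622 genes higher, and leaving out 1 library gave 1 to 4. The interaction needs all 4 groups, so no fit of 2 groups was run for it. The cause of these shifts was not tested. Over all genes called, library totals moved the share that was higher from 43.1% to 58.5% between the CD8αα groups and from 44.6% to 57.3% between CD4 IEL and CD8αβ IEL, where the median of all genes became 0.13.

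Replicate numbers were not taken to pair the samples, since the deviations of same-numbered libraries across groups correlated at −0.069 to 0.326, over 0.1 in 2 of 18 pairs. Both lie between CD8αβ IEL and CD8αα from CD8αβ (0.205, 0.326 and 0.098 for numbers 1, 2 and 3, against −0.257 to 0.058 for unlike numbers), where each library correlated best with its own number, a hint from the data that the labels do not give. There the block left 37 lower and 2 higher. With the replicate block, Rpa2 in the CD4 progeny (0.0526) and the Tk1 interaction (0.0581) were no longer called.

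Genes that changed sign were not called in the reported fit. In the CD4 progeny these were Clspn (−0.057 with library totals, −0.0047 with the 2 groups alone, −0.30 without the libraries with Xist, −0.085 to 0.16 with 1 library left out), E2f1 (−0.035 with library totals, −0.28 to 0.50 with 1 left out), Rfc3 (−0.0099 with library totals, −0.12 to 0.24 with 1 left out) and Dscc1 (−0.54 to 0.14 with 1 left out). In the CD8αβ progeny they were Gins2 (−0.035 with library totals, −0.018 with DESeq2, −0.023 with no filter, −0.14 without the libraries with Xist, −0.063 to 0.095 with 1 left out) and E2f1 (−0.046 with library totals, −0.014 with DESeq2, −0.021 with no filter, −0.40 to 0.22 with 1 left out). Between the CD8αα groups they were Tk1 (0.027 with library totals, 0.24 without the libraries with Xist, −0.29 to 0.23 with 1 left out) and Rpa2 (−0.0013 to 0.14 with 1 left out). Depth limits Mcm10 and E2f2, each with as few as 13 reads in a library, more than the abundant genes. The same holds for Gins1, with 17 to 108 reads in a library, and Orc1, with as few as 18.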
